A study of Mus musculus with 6 samples.

Results

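The genes described here encode the oxygen- and 2-oxoglutarate-dependent demethylases and their closest relatives, measured in RAW 264.7 cells, a mouse macrophage-like line, after antisense targeting of the long noncoding RNA Mist. The list holds 36 genes of the JmjC, TET and AlkB groups, taken by gene symbol from the array's annotation. Of these, 33 had a probe set annotated to that gene alone, among 22180 such genes in the series. Kdm2b, Jmjd6 and Alkbh1 are listed only on probe sets shared with another gene and are given no value. Where a gene had more than 1 probe set, the one with the highest mean over the 6 arrays was read; this applied to Kdm6b alone. Measured values thus decided only which probe set was read, although the list itself was proposed with results of these arrays in view.

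The enzymes of this superfamily use molecular oxygen, ferrous iron and 2-oxoglutarate, and release succinate and carbon dioxide. Among them, JmjC proteins remove methyl groups from histone lysines or hydroxylate other proteins, TET enzymes oxidise 5-methylcytosine in DNA, and AlkB enzymes remove methyl groups from RNA or DNA. Several JmjC genes, Kdm3a, Kdm4b and Kdm4c among them, are known targets of the hypoxia-inducible factor HIF, and in macrophages Kdm6b is known for its induction by inflammatory stimuli.

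There were 3 Mist-targeted and 3 Control samples. Lipofectamine RNAiMAX had carried into the cells 50 nM of an antisense oligonucleotide with locked nucleic acid bases, a GapmeR, directed at Mist or at no target, and RNA was taken 48 h later. All 6 samples therefore share the line, the transfection and the time, and no untransfected sample is among them. Expression is given as log2 values of 41345 probe sets, and differences are Mist-targeted minus Control. No probe set is annotated as Mist, so its knockdown was not checked and the grouping follows the labels.

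The arrays had medians of 4.47 to 4.50, and their number limits the precision. All 7 macrophage markers looked up, Csf1r, Adgre1, Cd68, Itgam, Lyz2, Spi1 and Ptprc, lay above the median of every array. Their mean was 10.31 to 10.42 on Mist-targeted and 10.35 to 10.40 on Control arrays. Of markers of other cell types, Cd3d, Cd3g, Cd79a, Ms4a1, Ly6g, S100a8, Col1a2 and Dcn lay below every array's median, S100a9 and Col1a1 lay above it, and Cd3e, Epcam, Krt8 and Krt18 were above it on some arrays only. None of the 14 was called. Bulk RNA cannot tell fewer cells from less RNA per cell.

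In 22 of the 33 measured genes the Mist-targeted and Control values overlapped, and a subset of histone demethylase genes, led by Kdm3a and Kdm7a, was lower on all 3 Mist-targeted arrays. None of the 33 passed an adjusted p under 0.05 (limma over all probe sets), against 0.203% of genes called lower and 0.212% called higher. At an unadjusted p under 0.05, 6 were lower (Kdm3a, Kdm7a, Kdm5b, Kdm4b, Kdm4c and Fto) and 1, Tet3, was higher, with 5.79% of all genes lower and 5.24% higher at that level (9.67% and 8.55% of genes with a mean above the array median). The Mist-targeted values lay below all Control values in 9 members, or 27.3%, against 9.97% of all genes. They lay above in 2 members, or 6.06%, against 9.99% of all genes. Dim probe sets reach such separation less often: among 11567 genes with a mean above the array median, 14.8% were lower and 14.5% higher without overlap, and 31 of the 33 members were that bright. The median difference of the members was -0.07, with 24 negative and 9 positive, beside a median of 0.01 over all genes, of which 47.8% were negative and 52.2% positive. With only the probe sets that the annotation lists in the fit, Kdm3a and Kdm7a were called lower and Tet3 higher, where 1.8% of genes were called lower and 1.1% higher. The members' median was -0.03 without Mist-targeted replicate 1 and -0.13 without Control replicate 1.

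**Figure D1:**
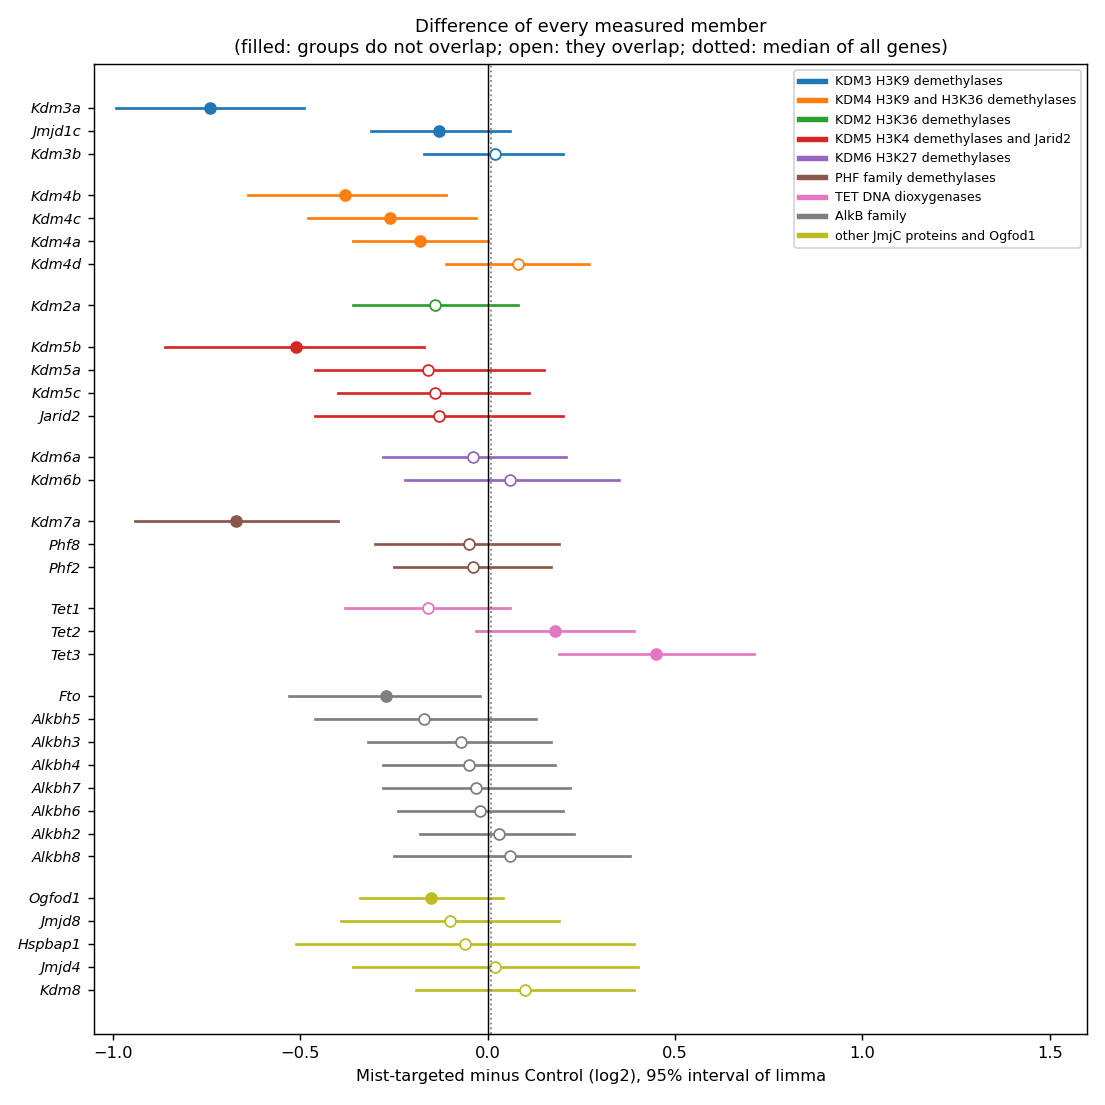
Difference of each of the 33 measured members on the log2 scale (horizontal axis, Mist-targeted minus Control, with the 95% interval of limma, n = 3 per group), in rows grouped by family. Kdm3a, Kdm7a and Kdm5b lie farthest to the left at -0.74, -0.67 and -0.51, and Tet3 farthest to the right at 0.45; filled points mark the 11 members whose groups do not overlap.

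The KDM3 family removes mono- and dimethyl marks from lysine 9 of histone H3. Kdm3a had log2 values of 7.28, 7.53 and 7.49 on the Mist-targeted arrays, against 8.17, 8.28 and 8.06 on the Control arrays. The groups were separated by 0.53, the widest gap of any member, and Mist-targeted replicate 1 was lowest. The means were 7.43 ± 0.14 and 8.17 ± 0.11 (SD, n = 3 each), a difference of -0.74 ± 0.11 (SE), or 1.67-fold lower. Its adjusted p was 0.056 (limma), just short of the threshold, with a range of 0.0025 to 0.22 over the alternatives. Kdm3b, which acts on the same mark, had 8.53, 8.64 and 8.58 on Mist-targeted and 8.56, 8.59 and 8.56 on Control arrays, a difference of 0.02 with a 95% interval of -0.17 to 0.20. Jmjd1c, the third relative, had 9.86, 9.83 and 9.77 against 9.90, 9.96 and 9.97 in Control. Its groups did not overlap, but they lay only 0.04 apart, and the difference was -0.13 ± 0.079 (adjusted p = 0.69, limma).

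Kdm7a belongs with Phf2 and Phf8 to the demethylases that carry a PHD finger before the JmjC domain, and it acts on lysines 9 and 27 of histone H3. Kdm7a had 7.49, 7.87 and 7.62 on Mist-targeted arrays, against 8.25, 8.41 and 8.33 on Control arrays. All 3 Mist-targeted values were at least 0.37 below the lowest Control value. The difference was -0.67 ± 0.12 (SE, n = 3 per group), or 1.59-fold lower, at an adjusted p of 0.083 (limma; 0.0062 to 0.29 over the alternatives). Phf2, a demethylase of dimethylated lysine 9, differed by -0.04 ± 0.090, and Phf8 by -0.05 ± 0.11. Both groups overlapped in these 2 genes.

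**Figure D2:**
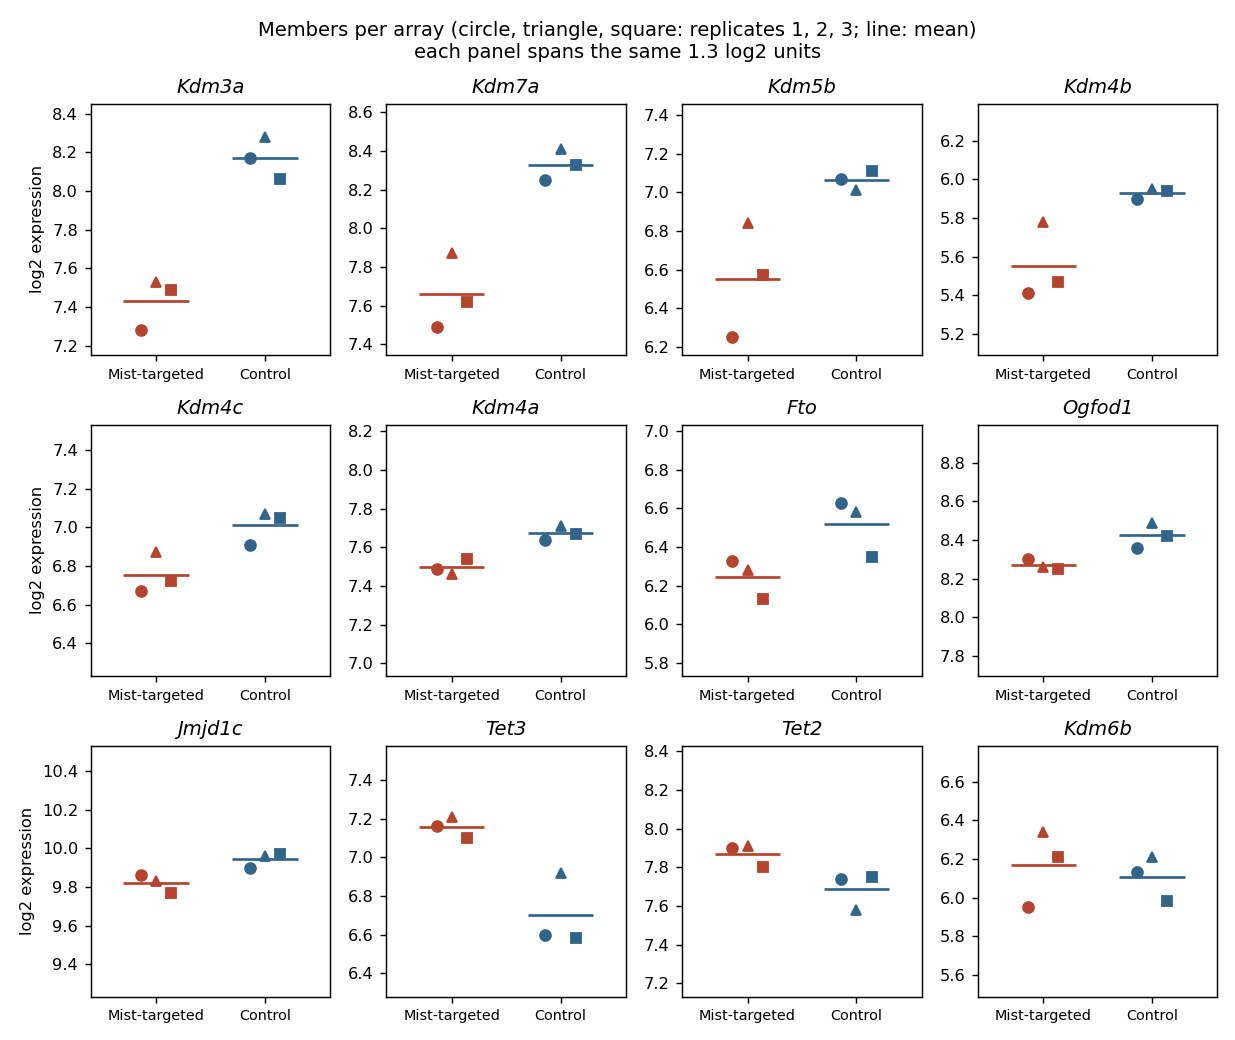
Log2 expression (vertical axis) of 12 members on each Mist-targeted (left, red) and Control (right, blue) array, with the group mean as a line and replicates 1, 2 and 3 as circle, triangle and square. The 11 members other than Kdm6b have groups that do not overlap, with the widest gap in Kdm3a (0.53), while the Kdm6b values interleave.

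The KDM4 enzymes remove trimethyl marks from lysines 9 and 36 of histone H3, and Kdm4d, which lacks the reader domains of the others, acts on lysine 9. Kdm4b had 5.41, 5.78 and 5.47 on Mist-targeted arrays and 5.90, 5.95 and 5.94 on Control arrays. Its Control values were tight and Mist-targeted replicate 2 came within 0.12 of them. Kdm4c had 6.67, 6.87 and 6.72, against 6.91, 7.07 and 7.05 in Control, with a gap of only 0.03 between the groups. Kdm4a had 7.49, 7.46 and 7.54, against 7.64, 7.71 and 7.67 in Control. The differences of Kdm4b, Kdm4c and Kdm4a were -0.38 ± 0.11, -0.26 ± 0.095 and -0.18 ± 0.079 (SE), with adjusted p of 0.29, 0.43 and 0.53 (limma). Kdm4d, whose mean of 3.72 over all arrays lay below the array medians, differed by 0.08 ± 0.083, and a dim probe set of this kind may understate a change.

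In the KDM5 family, which removes methyl groups from lysine 4 of histone H3, Kdm5b had the largest difference. It had 6.25, 6.84 and 6.57 on Mist-targeted arrays, against 7.07, 7.01 and 7.11 on Control arrays. The Mist-targeted arrays spread far more widely (SD 0.30) than the Control arrays (SD 0.051), and replicate 1 was lowest. The difference was -0.51 ± 0.15, or 1.43-fold lower (adjusted p = 0.27, limma), and -0.36 without Mist-targeted replicate 1. Kdm5c had 7.70, 7.85 and 7.89 against 7.81, 7.93 and 8.13 in Control, and its groups overlapped. Kdm5a differed by -0.16 ± 0.13 and Jarid2, a Polycomb partner whose JmjC domain has lost its activity, by -0.13 ± 0.14, both with overlapping groups. Kdm2a, a demethylase of lysine 36, had 8.38, 8.41 and 8.55 against 8.46, 8.64 and 8.66 in Control, again overlapping.

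The demethylase genes of trimethylated lysine 27 had overlapping groups. Kdm6b had 5.95, 6.34 and 6.21 on Mist-targeted arrays and 6.13, 6.21 and 5.98 on Control arrays, so neither group was higher throughout. Its difference was 0.06 with a 95% interval of -0.22 to 0.35, and its other, dim probe set gave 0.08 ± 0.089. Kdm6a, the X-linked enzyme, differed by -0.04 ± 0.10. Its Y-linked homologue Uty, a JmjC gene of the list of other 2-oxoglutarate oxygenases, was lower: 6.87, 6.90 and 6.76 on Mist-targeted arrays, against 7.65, 7.53 and 7.53 on Control arrays. Uty fell by 0.73 on the log2 scale (SE 0.087; adjusted p = 0.033, limma; 0.0011 to 0.16 over the alternatives), while Kdm5d, the Y-linked homologue of Kdm5c, differed by -0.10 ± 0.085. Leaving out any 1 of the 6 arrays ended the Uty call, with adjusted p of 0.089 to 0.16, although its difference stayed between -0.75 and -0.68. Within arrays, the log2 ratio of Uty to Kdm6a changed by -0.69 ± 0.042 (SE), by -0.68, -0.74 and -0.64 on the 3 Mist-targeted arrays; this pair was chosen after its values were seen.

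Among the TET genes, Tet3 and Tet2 were higher on all 3 Mist-targeted arrays, without passing the adjusted threshold. Tet3 had 7.16, 7.21 and 7.10 on Mist-targeted arrays, against 6.60, 6.92 and 6.58 on Control arrays. Every Mist-targeted value was above every Control value, and Control replicate 2 was the nearest. The difference was 0.45 ± 0.11 (SE, n = 3 per group), or 1.37-fold higher, with an adjusted p of 0.20 (limma; 0.041 to 0.46 over the alternatives). Tet2, the member of the family best known from blood cells, had 7.90, 7.91 and 7.80 against 7.74, 7.58 and 7.75 in Control, a difference of 0.18 ± 0.088 with a gap of 0.05 between groups. Tet1 was dim, with 3.82, 3.98 and 3.78 against 3.99, 3.97 and 4.12 in Control, all under the array medians.

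The AlkB group includes the 2 RNA demethylases of N6-methyladenosine, Fto and Alkbh5. Fto had 6.33, 6.28 and 6.13 on Mist-targeted arrays and 6.63, 6.58 and 6.35 on Control arrays. Its groups were separated by only 0.02, and the difference was -0.27 ± 0.11 (adjusted p = 0.46, limma). Alkbh5 had 7.91, 8.37 and 8.29 against 8.31, 8.37 and 8.39 in Control. Mist-targeted replicate 1 was lowest, replicate 3 lay just under the lowest Control value, and the groups overlapped. The DNA repair enzyme genes Alkbh2 and Alkbh3 differed by 0.03 and -0.07, and Alkbh8, which modifies the wobble base of transfer RNAs, by 0.06. Alkbh4, Alkbh6 and Alkbh7 lay between -0.05 and -0.02. Of these 8 AlkB genes, Fto was the one with an unadjusted p under 0.05.

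Among the remaining proteins, Ogfod1, a prolyl hydroxylase of a ribosomal protein, had 8.30, 8.26 and 8.25 on Mist-targeted arrays, against 8.36, 8.49 and 8.42 on Control arrays. The groups did not overlap, with a gap of 0.06 and a difference of -0.15 ± 0.081 (adjusted p = 0.63, limma). Kdm8, Jmjd4, Jmjd8 and Hspbap1 had differences of 0.10, 0.02, -0.10 and -0.06 with overlapping groups. The interval of Hspbap1 was the widest of all members, at -0.51 to 0.39.

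Relatives within a family could be set against each other on the same array. For all 22 pairs inside the KDM3, KDM4, KDM5, KDM6, PHF and TET families, the log2 ratio of the pair was compared between groups. The gene with the lower difference was placed first in each pair, so every mean change is negative by construction. Kdm3a over Kdm3b changed by -0.76 ± 0.079 (SE, n = 3 per group), and by -0.86, -0.71 and -0.69 on the single Mist-targeted arrays. Kdm3a over Jmjd1c changed by -0.61 ± 0.12, Kdm7a over Phf2 by -0.63 ± 0.077 and Kdm7a over Phf8 by -0.62 ± 0.11. Kdm5b over Kdm5a changed by -0.36 ± 0.22, with -0.77 on replicate 1 and -0.18 and -0.13 on the others. The exact permutation test gave p = 0.1 for 12 of the 22 pairs, which is the smallest that 3 against 3 arrays allow (adjusted over 22 pairs, 0.18). No such share was taken over pairs of other genes. The pairs share genes, and some of the 12 include Kdm4d or Tet1, both below the array medians. Kdm4b and Kdm4c did not separate from Kdm4a (ratio changes -0.20 ± 0.13 and -0.08 ± 0.086, exact permutation p = 0.4 each).

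**Figure D3:**
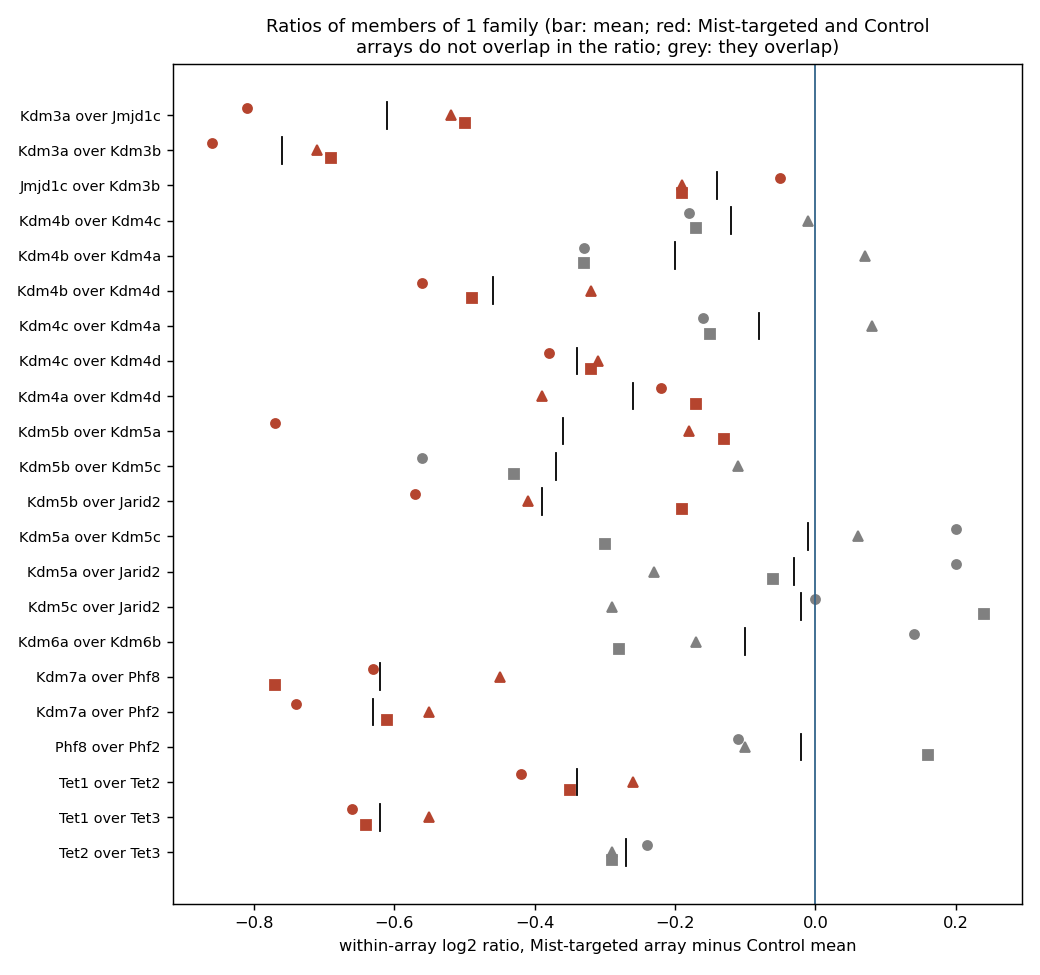
Change of the within-array log2 ratio of 22 pairs of related members (horizontal axis, each Mist-targeted array minus the mean of the 3 Control arrays; circle, triangle and square are replicates 1, 2 and 3, the bar is their mean). Kdm3a and Kdm7a over their relatives lie at -0.45 or below on every array, and red marks the 12 pairs whose ratios do not overlap between groups. The gene with the lower difference is the first of each pair, which fixes the sign of the bars.

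The HIF pathway was read beside these genes. Kdm3a, Kdm4b and Kdm4c, the 3 members listed as HIF targets, were all lower without overlap, as were 9.97% of all genes and 14.8% of those above the array median, and their median difference was -0.38. These 3 were listed with earlier results of these data known, so their shared direction is only a description. The 10 measured hypoxia targets of a separate list had a median of -1.21. Of them, the mTORC1 inhibitor gene Ddit4 (-1.82 ± 0.16) and the oxidoreductase gene Ero1a (-1.08 ± 0.13) were called (limma, adjusted p = 0.014 and 0.038), against 0.203% of all genes, and the other 8 were not. Without overlap 9 of the 10, or 90.0%, were lower and 0 higher, and at an unadjusted p under 0.05 there were 8 lower, or 80.0%, against 5.79% of all genes. Leaving out any 1 array ended the Ero1a call (0.063 to 0.17), and that of Ddit4 ended without any 1 Control array or Mist-targeted replicate 3 (0.070 to 0.090). The median shift of the 10 on Mist-targeted replicates 1, 2 and 3 was -1.75, -0.85 and -0.91. On the same arrays Kdm3a was shifted by -0.90, -0.64 and -0.68, and Kdm5b by -0.82, -0.22 and -0.50. Replicate 1 was lowest in both, as in Kdm7a, Kdm4b and Kdm4c. The other members lower without overlap were lowest on replicate 2 (Kdm4a) or 3 (Jmjd1c, Fto and Ogfod1). Mist-targeted replicate 1 was the lowest of the 6 arrays in 15 of the 33 members, or 45.5%, against 19.4% of all genes. Without it, Kdm3a differed by -0.66, Kdm7a by -0.58, Kdm4b by -0.31 and Kdm4c by -0.21, while Tet3 stayed at 0.45.

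**Figure D4:**
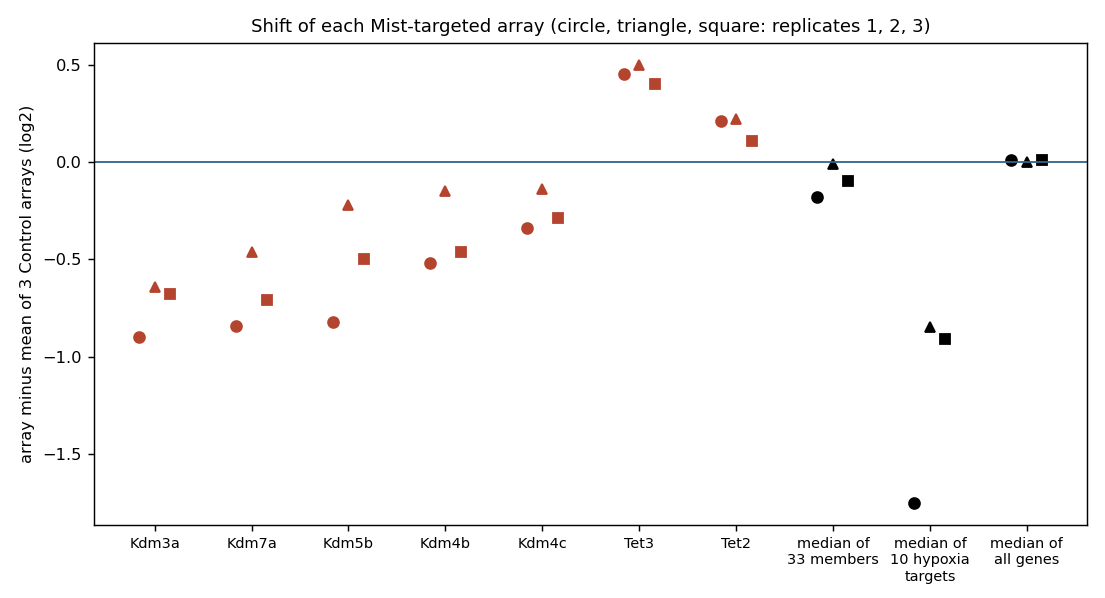
Shift of each Mist-targeted array from the mean of the 3 Control arrays (vertical axis, log2) for 7 members and for 3 medians; circle, triangle and square are replicates 1, 2 and 3. Replicate 1 is lowest in the 5 histone demethylase genes shown and in the hypoxia targets (-1.75), and the medians of all genes lie at 0.01 or less. Kdm4a, Jmjd1c, Fto and Ogfod1, also lower without overlap but lowest on replicate 2 or 3, are not shown.

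The HIF hydroxylases, which use the same cofactors, were the nearest relatives by function. Egln1, the main prolyl hydroxylase of HIF, had 7.81, 8.19 and 8.19 on Mist-targeted arrays, against 9.05, 8.83 and 8.68 on Control arrays. Egln3 had 3.89, 3.99 and 3.99, against 4.53, 4.72 and 4.41 in Control, at a dim level. Their differences were -0.79 ± 0.14 and -0.60 ± 0.10 (adjusted p = 0.091 and 0.081, limma). Egln2 differed by 0.15, the asparaginyl hydroxylase gene Hif1an by 0.08, Hif1a by -0.09, Epas1 by -0.05, Arnt by -0.18 and Vhl by -0.25, and none was called. Without overlap, Egln1, Egln3 and Arnt were lower (37.5% of the 8) and Egln2 was higher (12.5%), against 9.97% and 9.99% of all genes. The gaps of Arnt and Egln2 were only 0.05 and 0.06. Of the 19 measured other 2-oxoglutarate oxygenases, Uty was called lower, against 0.203% of all genes, and 18 were not called. Their median was -0.04. Without overlap, 5 of the 19 were lower (26.3%, against 27.3% of the members and 9.97% of all genes) and 0 higher.

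Promoter windows were read for members that were lower together. Windows of 250 bases before to 50 bases after the start of transcription, from RefSeq (GRCm38.p6), were held for 28 of the 33 members, in 35 windows. They were searched on both strands for ACGTG, 1 of the 2 forms of the HIF core RCGTG (R is A or G). ACGTG also lies within the E-box CACGTG. The other form, GCGTG, was not searched and is not marked, so windows without capitals may hold it. Windows are shown for the 5 members with the largest differences among those lower without overlap that had one, and for Tet3, which was higher; Kdm3a is shown at the first of its 3 windows and Kdm4c at the 1 of 2 that holds the motif. Capitals mark the motif.
Kdm3a, chr6:71632868-71633167, minus strand: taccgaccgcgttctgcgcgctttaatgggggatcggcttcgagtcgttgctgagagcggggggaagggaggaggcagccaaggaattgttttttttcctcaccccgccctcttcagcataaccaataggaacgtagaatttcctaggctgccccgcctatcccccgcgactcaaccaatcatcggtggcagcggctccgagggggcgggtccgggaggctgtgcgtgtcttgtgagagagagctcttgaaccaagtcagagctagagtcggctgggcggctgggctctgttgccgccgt
Kdm7a, chr6:39206724-39207023, minus strand: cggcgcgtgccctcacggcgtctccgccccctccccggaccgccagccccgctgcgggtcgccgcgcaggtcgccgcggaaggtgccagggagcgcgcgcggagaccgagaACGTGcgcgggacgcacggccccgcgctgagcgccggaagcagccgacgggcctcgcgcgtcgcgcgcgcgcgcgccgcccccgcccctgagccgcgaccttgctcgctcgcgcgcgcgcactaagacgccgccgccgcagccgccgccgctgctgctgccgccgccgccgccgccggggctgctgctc
Kdm5b, chr1:134559928-134560227, plus strand: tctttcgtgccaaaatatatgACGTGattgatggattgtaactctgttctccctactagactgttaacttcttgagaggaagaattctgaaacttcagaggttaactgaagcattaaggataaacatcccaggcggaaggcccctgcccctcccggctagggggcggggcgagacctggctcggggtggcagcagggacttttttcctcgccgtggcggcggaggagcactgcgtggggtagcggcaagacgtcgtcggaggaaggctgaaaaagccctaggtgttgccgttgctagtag
Fto, chr8:91313275-91313574, plus strand: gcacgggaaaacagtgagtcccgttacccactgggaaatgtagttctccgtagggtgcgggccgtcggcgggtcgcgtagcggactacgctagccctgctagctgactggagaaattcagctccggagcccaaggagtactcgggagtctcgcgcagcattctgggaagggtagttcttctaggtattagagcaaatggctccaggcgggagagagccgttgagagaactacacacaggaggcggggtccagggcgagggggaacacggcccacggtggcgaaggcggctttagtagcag
Kdm4c, chr4:74251629-74251928, plus strand: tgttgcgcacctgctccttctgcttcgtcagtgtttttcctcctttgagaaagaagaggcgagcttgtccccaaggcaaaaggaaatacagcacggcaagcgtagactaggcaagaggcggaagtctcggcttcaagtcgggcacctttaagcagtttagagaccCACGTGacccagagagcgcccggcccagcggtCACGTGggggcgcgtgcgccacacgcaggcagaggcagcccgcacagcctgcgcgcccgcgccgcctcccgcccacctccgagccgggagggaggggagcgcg
Tet3, chr6:83441629-83441928, minus strand: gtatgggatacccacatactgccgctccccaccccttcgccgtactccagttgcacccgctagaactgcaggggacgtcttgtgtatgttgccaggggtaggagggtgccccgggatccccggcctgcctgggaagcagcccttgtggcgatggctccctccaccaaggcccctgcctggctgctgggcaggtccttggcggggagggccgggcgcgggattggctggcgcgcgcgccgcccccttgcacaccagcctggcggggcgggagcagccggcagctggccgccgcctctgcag
The motif was found in 1 place each in Kdm7a and Kdm5b and, counted on both strands, in 4 in Kdm4c, where it forms a pair of CACGTG sites. ACGTG was not in any of the 3 Kdm3a windows or in those of Fto and Tet3, which were not searched for GCGTG. Of the 8 members that were lower without overlap and had a window, 3 held it, as did 8 of the 20 others. By window, 3 of 12 (25.0%) and 8 of 23 (34.8%) held it, against 19.6% of 32851 windows of all genes. ACGTG contains the bases CG, and the windows of all genes were not matched for how often CG occurs. A match is a description of these letters and no evidence of binding, and windows were short.

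The enzymes that write the marks were read from separate lists. Of 23 measured histone lysine methyltransferase genes 0 were called (limma), with a median of 0.00. At an unadjusted p under 0.05, 4 were higher (17.4%) and 0 lower, against 5.24% and 5.79% of all genes. Among genes above the array median, 8.55% and 9.67% reached that level. Without overlap, 4 of the 23 were higher (17.4%) and 3 lower (13.0%), against 9.99% and 9.97% of all genes. Setd1b, a methyltransferase of lysine 4, had 6.45, 6.45 and 6.55 on Mist-targeted arrays, against 6.13, 5.99 and 6.07 on Control arrays (0.42 ± 0.084; adjusted p = 0.13). Setdb2, of lysine 9, differed by 0.43 ± 0.12 (adjusted p = 0.25, limma). Of 12 m6A writer and reader genes 0 were called (1 higher at an unadjusted p under 0.05), and Rbm15, a subunit of the writer complex, differed by 0.36 ± 0.090. Without overlap, 4 of the 12 were higher (33.3%) and 0 lower. The share higher was 9.99% of all genes and 14.5% of those above the array median. Of 8 genes of DNA methylation and its repair 0 were called (1 higher at an unadjusted p under 0.05), with the glycosylase gene Mbd4 at 0.33 ± 0.13 and Dnmt3a at -0.14 ± 0.10. The FAD-dependent demethylase Kdm1a, which needs no 2-oxoglutarate, differed by 0.14 ± 0.084, and 0 of the 5 genes of its list were called (1 higher at an unadjusted p under 0.05, Hdac2 at 0.27 ± 0.11). Without overlap, 2 of these 5 were higher and 1 lower, and of the 8 genes of DNA methylation 1 was higher and 0 lower.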

How the data were processed

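Per the labels, total RNA was column-purified with DNase and labelled with biotin, 5 µg per sample. The deposited values are log2 expression; the submitters' processing notes name RMA and Partek but no version of either. RMA draws arrays to 1 distribution, so a shift of most transcripts would be reduced. Probe sets were named from the platform annotation (23521 with 1 gene, 1814 with several, 16010 not listed and unnamed here). The log2 values were used as deposited; 0 columns were left unused. No 2 columns were identical (r between arrays 0.986 to 0.991).

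Differences come from limma 3.58.1 in R 4.3.3 (lmFit, eBayes, group only, two-sided; prior degrees of freedom 3.48), with Benjamini-Hochberg adjustment over 41345 probe sets; a gene under 0.05 was called. On simulated arrays of these 41345 probe sets, 70 of 100 changes of 1 log2 unit and 93 of 100 of 1.5 were called, and 11 of the 174 calls fell on unchanged probe sets. Smaller changes, such as the members' differences of -0.74 to 0.45, were not simulated, so the rate at which they would be called is not known. Whether replicates were separate cultures is not stated, so p values cover only the spread between samples, possibly a technical one. Members, lists and family pairs were chosen with earlier results of these data known. All members are named; values per array are given for the 14 with the smallest p and for Kdm3a, Kdm4b, Kdm4c, Kdm6b, Kdm5b, Tet2, Tet3, Fto and Alkbh5. Of other lists, up to 4 called genes or else up to 2 with the smallest p are named, and all HIF subunits and hydroxylases. Kdm5d and Kdm1a, and the array values of Kdm3b, fall outside this rule and were added after their values were seen. Alternatives were a replicate block, eBayes with trend and robust, quantile normalization, median centring, dropping the dimmest 40% of probe sets, averaging each gene's probe sets, listed probe sets only, and each array left out in turn. Ratios used scipy 1.17.1 and plots matplotlib 3.10.9 in Python 3.11.15.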

Additional observations from a re-analysis of the deposited data

How the results depend on the processing

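The number of members called moved with the setting, while the Kdm3a difference stayed between -0.80 and -0.66 with any 1 array left out. Against 0 called lower, limma called 1 (Kdm3a) with the dimmest 40% of probe sets left out and 1 (Kdm3a) with quantile normalization (adjusted p = 0.047 in both), and 2 (Kdm3a and Kdm7a) with trend and robust (0.023 and 0.043). The share of all genes called was not taken in these settings. With listed probe sets only, limma called 2 lower (the same 2 genes, adjusted p = 0.0025 and 0.0062) and 1 higher (Tet3, 0.041). There 1.8% of all genes were called lower and 1.1% higher. That setting tests 25335 probe sets in place of 41345, and the prior degrees of freedom were 7.66 in place of 3.48 (3.06 for those not listed); the cause was not tested further. Median centring, the mean of all probe sets and each array left out gave 0 calls among the members in either direction. With the replicate block 0 were called either, with Kdm3a and Kdm7a both at an adjusted p of 0.14; Uty, Ddit4 and Ero1a lost their calls there (0.13, 0.089 and 0.14). Same-numbered samples correlated at 0.195, 0.107 and 0.033 in their deviations, and 5 of 6 samples correlated best with their own number, a hint from the data rather than the design. With 1 array left out, 9 to 13 members were lower and 2 to 4 higher without overlap, and the median of the members was -0.13 to -0.03. Groups separate more readily with fewer arrays. The share of all genes was not taken there, so these counts cannot be set against that of 6 arrays. Differences near 0 changed sign: Kdm3b from -0.01 to 0.04, Kdm6a from -0.09 to 0.03, Kdm6b from -0.02 to 0.17, Phf8 from -0.11 to 0.03, Jmjd4 from -0.13 to 0.14, Jmjd8 from -0.18 to 0.00, Hspbap1 from -0.22 to 0.14, Alkbh2 from -0.03 to 0.07, Alkbh3 from -0.13 to 0.01, Alkbh4 from -0.09 to 0.02, Alkbh6 from -0.07 to 0.03, Alkbh7 from -0.10 to 0.04, Alkbh8 from -0.05 to 0.20 and Epas1 from -0.08 to 0.00. The scale moved little, with a median of all genes at 0.007 as deposited and 0.004 after quantile normalization. With 3 arrays per group, differences had a median SE of 0.11 (log2).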

Other observations

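Enzymes that make or use 2-oxoglutarate, which the demethylases consume, or succinate and fumarate, which can inhibit them, had values that overlapped between the groups in 15 of 21 measured genes; 5 were lower and 1 higher without overlap, against 9.97% and 9.99% of all genes. Of the 21, 0 were called (limma), and the median difference was -0.00. At an unadjusted p under 0.05 (limma), 2 were lower (9.52%) and 0 higher, against 5.79% and 5.24% of all genes. All 21 had a mean above the array median. Of all genes that bright, 9.67% were lower and 8.55% higher at that level, and 14.8% and 14.5% without overlap. Gpt2, the mitochondrial alanine aminotransferase, which exchanges glutamate and 2-oxoglutarate, had log2 values of 6.83, 6.90 and 7.12 on Mist-targeted arrays, against 7.64, 7.79 and 7.60 on Control arrays. Its difference was -0.73 ± 0.11 (SE, n = 3 per group; adjusted p = 0.056, limma). The cytosolic aspartate aminotransferase gene Got1 had 9.34, 9.40 and 9.46, against 9.75, 9.88 and 9.72 in Control (-0.39 ± 0.087; adjusted p = 0.16). The groups did not overlap in either gene.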
